A study of Homo sapiens with 8 samples.

Results

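Chromosome 19 carries the largest collection of zinc finger genes in the human genome. The genes described here are the protein-coding genes whose symbol is ZNF followed by a number, with or without a trailing letter, and whose locus lies on chromosome 19. GENCODE release 29 names 246 such genes, and 236 of them had a transcript of 300 nt or more in the deposited tables. The other 10 were not analysed here. These 236 members stood among 38767 genes summed from the tables. A further 258 ZNF-number genes lie on other chromosomes, and 1118 other protein-coding genes lie on chromosome 19. The study profiled total RNA of HEK293, an established human embryonic kidney cell line, after transfection. The 8 groups, of 1 library each, were control siRNA, AUF1 siRNA, empty vector, AUF1 overexpression with a Flag tag as p37, p40, p42, p45, and all isoforms together. Values of the 8 libraries are given in that order throughout. The HNRNPD gene encodes AUF1, which is known for binding AU-rich sequences in mRNA and for roles in mRNA decay and translation. The labels give neither the dose nor the time after transfection, and no group has a second culture.

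C2H2 zinc finger proteins bind DNA through a row of short finger repeats, each folded around a zinc ion and joined to the next by a conserved linker. Most of the chromosome 19 genes also encode a KRAB box, which recruits the corepressor TRIM28 (KAP1) and through it the histone methyltransferase SETDB1, HP1 proteins and DNA methylation. Many of these proteins silence retrotransposons, and the genes arose by tandem duplication, so neighbours have similar sequence. This similarity also bears on how short reads are divided among them.

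The shared structure is visible in the coding sequence. Below is the first finger repeat with its linker in 6 members on which later results turn, or which are well known, from the representative GENCODE release 29 (GRCh38) transcript, 5′ to 3′. Each stretch of 84 bases begins at the codon of the first cysteine, and the capitals mark the 21 bases that encode the last histidine of the finger and the linker.
ZNF586: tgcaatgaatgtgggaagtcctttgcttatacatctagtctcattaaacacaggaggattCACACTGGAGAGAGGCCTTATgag
ZNF587: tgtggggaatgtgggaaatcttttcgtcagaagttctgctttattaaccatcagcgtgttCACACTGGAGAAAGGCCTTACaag
ZNF587B: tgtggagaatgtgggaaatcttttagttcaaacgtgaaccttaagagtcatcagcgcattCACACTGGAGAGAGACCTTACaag
ZNF254: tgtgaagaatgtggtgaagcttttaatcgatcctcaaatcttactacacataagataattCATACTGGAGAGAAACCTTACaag
ZNF431: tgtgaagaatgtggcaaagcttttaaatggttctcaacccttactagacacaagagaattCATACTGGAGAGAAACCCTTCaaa
ZNF91: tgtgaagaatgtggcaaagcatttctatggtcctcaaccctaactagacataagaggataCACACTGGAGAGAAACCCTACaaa

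ZNF587 and its neighbour ZNF587B had 65 of these 84 bases in common. ZNF431 and ZNF91, from the same position block, had 74 in common, and ZNF587 and ZNF431, from different blocks, had 52. A finger followed by this linker was found in 222 of the 236 members. The linker itself was encoded by 122 different sequences of 21 bases, and the commonest of these was present in 17 members. Members had a median of 12 fingers, from 0 in the representative transcript of ZNF738 to 36 in ZNF208. A KRAB box was found in the coding sequence of 203 members (86.0%), against 130 (50.4%) of the 258 ZNF-number genes on other chromosomes. Over the representative transcripts, the median share of 32-base stretches that also occur in a transcript of another gene was 9.36%. It was 50% or more in 14 members and under 5% in 94.

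All values are FPKM, the fragments of a transcript normalised to its length and to the mapped fragments of the library, summed over the transcripts of a gene and scaled between libraries. The number of reads is unknown. Relative depth, taken as coverage per unit of FPKM, ran from 0.213 to 0.345. The targeted gene HNRNPD was at 298.0, 167.0 and 313.1 FPKM in the control siRNA, AUF1 siRNA and empty vector libraries and at 3007 to 4887 FPKM in the 5 overexpression libraries. The HEK293 markers NEFM (30.3 to 54.9 FPKM) and LIN28B (12.4 to 16.5 FPKM) were present in all 8 libraries, while the fibroblast markers DCN and LUM were at most 0.149 FPKM. The summed level of 5 listed HEK293 markers was 66.6 to 89.9 FPKM, that of 7 fibroblast markers 6.46 to 14.3 and that of 6 cervical carcinoma markers, CAV1 the highest of them, 58.1 to 83.8. Their part in the results below was not tested.

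Most members were expressed at a low level. Of the 236, 213 were above 0 in all 8 libraries, 170 were at 1 FPKM or more in all 8, and 53 were at 5 FPKM or more in all 8. Listed at 0 in all 8 were 6 members, namely ZNF177, ZNF763, ZNF20, ZNF565, ZNF285 and ZNF816. The median of the members' mean levels was 3.90 FPKM, against 5.98 for the ZNF-number genes elsewhere, 2.46 for the other chromosome 19 protein-coding genes and 4.72 for all protein-coding genes. A mean of 5 FPKM or more was reached by 93 members (39.4%), compared with 54.3% of the other ZNF-number genes and 49.0% of protein-coding genes. Members with a KRAB box had a median of 3.93 FPKM and the 33 without one a median of 3.29 FPKM.

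**Figure D1:**
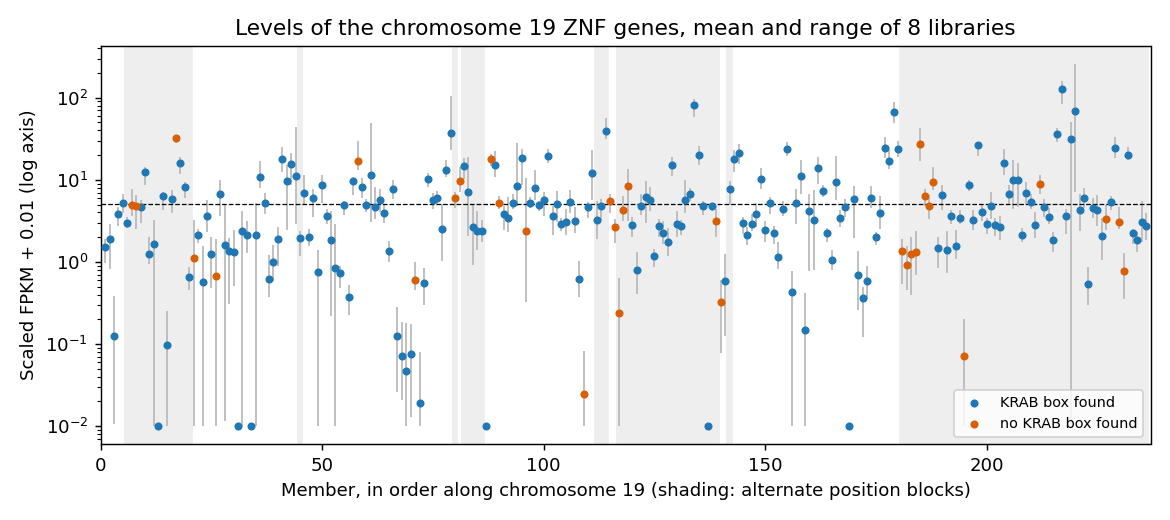
Mean scaled FPKM (points) and the range over 8 libraries (grey lines) of each of the 236 members, plotted on a log axis after adding 0.01, in their order along chromosome 19. Blue points have a KRAB box and orange points have none, shading separates position blocks, and the dashed line marks 5 FPKM, above which 93 members lie.

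The 8 members with the highest summed FPKM were ZNF586, ZNF233, ZNF587, ZNF813, ZNF780A, ZNF254, ZNF776 and ZNF121. ZNF586 (ENSG00000083828, hg19 chromosome 19, 58281023 to 58291984) was the highest at a mean of 128 FPKM. Its values were 83.4, 129.7, 146, 116, 125, 159.6, 115 and 150.1 FPKM. The control siRNA library was the lowest, and the AUF1 siRNA library lay inside the range of the remaining 6. ZNF233 followed at a mean of 80.7 FPKM, with 57.8 in the control siRNA library and 68.1 to 96.8 in the rest. ZNF813 had a mean of 66.6 FPKM (48.9 to 88.6), ZNF780A 39.3 (31.0 to 56.7) and ZNF776 36.2 (28.7 to 43.1). ZNF121 was the most even of the members at 5 FPKM or more. It stood between 28 and 35.6 FPKM in the 8 libraries, a range of 0.33 on the log2 scale. ZNF587 owed part of its rank to the empty vector and all-isoform libraries and ZNF254 to the p37 library, as described with their ratios.

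The order depended on how transcripts were combined. A sum of FPKM gives a fragment on a short transcript more weight than a fragment on a long one, so a length-weighted sum was also taken, in which FPKM times transcript length is summed and divided by the longest listed transcript of the gene. By this measure ZNF121 was the highest member at a mean of 28.2 FPKM, followed by ZNF586 at 22.1, ZNF254 and ZNF580 at 19.9 each, ZNF146 at 17.3, ZNF460 at 16.0, ZNF714 at 14.0 and ZNF233 at 11.1. Of the 8 highest members by the plain sum, 4 were among the 8 highest by the length-weighted sum. ZNF813 dropped to 3.66 FPKM and ZNF780A to 3.60 FPKM.

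Members lie in tandem arrays. Splitting them wherever neighbours were more than 1 Mb apart gave 16 position blocks, and the 7 blocks of 15 or more genes held 215 members. The block nearest the end of the long arm (hg19 chromosome 19, 55987699 to 58992591) was the largest with 56 members, among them ZNF586, ZNF587, ZNF776 and ZNF419, and 21 of these had a mean of 5 FPKM or more. The block from 52074551 to 54083523 held 38 members, all with a KRAB box, including ZNF813 and ZNF331. The block from 19779605 to 24312643, home of ZNF91, ZNF43, ZNF85, ZNF431 and ZNF254, held 34 members and had a median level of 4.3 FPKM. The lowest median among the 7 large blocks, 2.0 FPKM, belonged to the 24 members from 11594245 to 12750912, among them ZNF564, ZNF490 and ZNF791. Members of that block shared more sequence with other genes than those of any other large block, with a median of 20.8% of 32-base stretches.

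Several members have a known role, and their levels were modest. ZNF91, which represses SVA retrotransposons, stood at 4.39 to 6.86 FPKM. ZNF93, which acts on LINE-1 elements, stood at 5.15 to 11.4 FPKM. Their relatives ZNF43 (5.88 to 9.86 FPKM) and ZNF85 (5.96 to 10.4 FPKM) overlapped them in range. ZNF274, which directs SETDB1 to zinc finger gene clusters themselves, stood at 4.3 to 6.31 FPKM. ZNF331, an imprinted gene, reached 19.1 to 29.9 FPKM, and ZNF146, a protein made almost wholly of fingers without a KRAB box, 14.9 to 20.6 FPKM. ZNF175, studied in the macrophage response to HIV, stood at 12.5 to 23.3 FPKM and ZNF224, a repressor of aldolase A, at 11.1 to 19 FPKM. The lowest of the listed members were ZNF350, a BRCA1-binding repressor, at 2.40 to 3.84 FPKM, ZNF382 at 2.33 to 6.18 FPKM, and ZNF420, a negative regulator of p53, at 4.21 to 5.46 FPKM.

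The first comparison asked how the members differed when AUF1 was lowered. A member was compared where the mean of the libraries was 5 FPKM or more, both values were above 0 and no transcript had a failed estimate, and it was called at 2-fold or more on the log2(FPKM + 1) scale, which understates the change of low genes. With 1 library in each group there is no replicate check and no p-value, and in bulk RNA a change in part of the cells cannot be told apart from a change in every cell. Of 83 members compared between the AUF1 siRNA and control siRNA libraries, 4 (4.82%) were past 2-fold, while 13.2% of all 10968 genes compared were. Higher values made up 3 of these calls (background 9.93%) and lower values 1 (background 3.25%). Among protein-coding genes of 5 to 20 FPKM the share was 13.8%, against 4 of 69 members (5.80%) in that band. The ZNF-number genes elsewhere had 12 of 131 past 2-fold, and the other chromosome 19 protein-coding genes 29 of 437. The median log2 ratio of the members was 0.04, beside -0.04 over all genes compared. The 69 members with a KRAB box had a median of 0.08 and the 14 without one a median of -0.27. In the control siRNA library against the empty vector the order was the opposite. There the medians were -0.16 over 73 members with a KRAB box and 0.06 over 15 without one. The control siRNA library is the divisor in the first pair and the numerator in the second, so the orders are not independent.

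**Figure D2:**
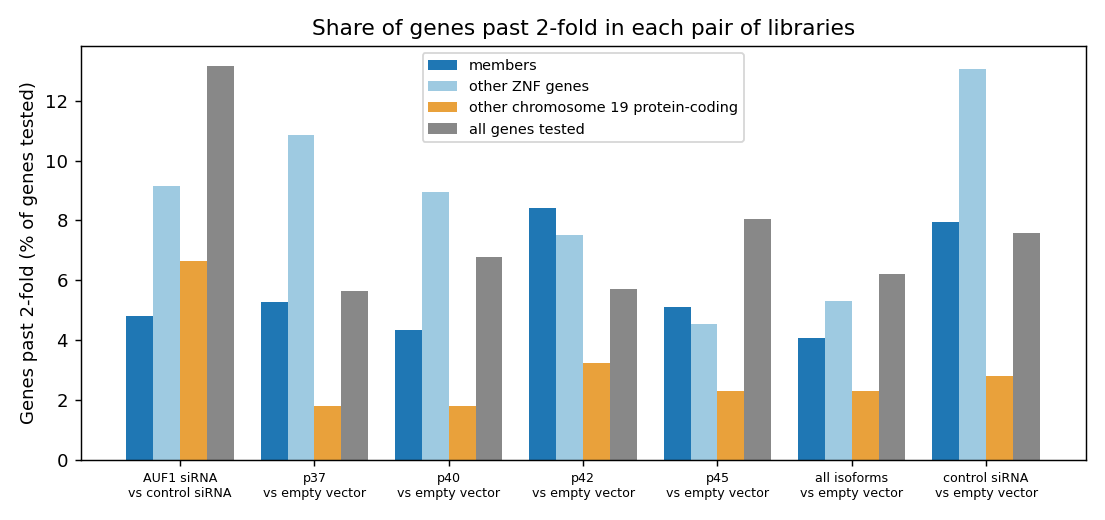
Share of genes past 2-fold, as a percentage of the genes compared, for members, ZNF-number genes on other chromosomes, other chromosome 19 protein-coding genes and all genes, in 7 pairs of libraries. In the AUF1 siRNA pair 4.82% of members and 13.2% of all genes were past 2-fold. Members were above the all-gene share in the p42 pair (8.42% against 5.72%). They were near it in the pair of controls (7.95% against 7.59%).

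ZNF226 was the member lower with the AUF1 siRNA. Its values were 10.0, 3.91, 4.89, 4.82, 4.32, 6.16, 6.34 and 5.28 FPKM, and the log2 ratio was -1.16. The control siRNA library was the one that stood apart. A transcript of 994 nt was listed at 5.68 FPKM there and at 0 in the other 7 libraries. The length-weighted log2 ratio was -0.56.

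ZNF431 was higher with the AUF1 siRNA. Its values were 3.06, 8.88, 6.06, 6.19, 6.83, 48.9, 7.17 and 5.31 FPKM, and the log2 ratio was 1.28. The control siRNA value was thus below all others, and against the empty vector the AUF1 siRNA ratio was 0.48. ZNF564 was also higher, with values of 2.45, 10.6, 8.23, 15.1, 11.9, 8.75, 9.25 and 11.7 FPKM and a log2 ratio of 1.74. Here too the control siRNA library was the low one. A transcript of 575 nt was listed at 0 with the control siRNA and at 6.97 to 13.6 FPKM elsewhere. ZNF564 shared 85.4% of its 32-base stretches with other genes, so its value is uncertain.

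ZNF419 had the largest ratio, 1.77 on the log2 scale. Its values were 4.40, 17.4, 6.58, 13.6, 9.54, 15.3, 8.5 and 5.38 FPKM. The AUF1 siRNA library was the highest of the 8. Bounds were deposited per transcript and are given here summed over the transcripts of a gene. Such a sum is not a confidence interval of the gene value. The summed bounds, 5.53 to 29.2 FPKM against 1.1 to 7.82 FPKM, overlapped. For the other called members, ZNF226, ZNF431 and ZNF564, they did not. ZNF419 was the one of these 4 members that also passed 2-fold against the empty vector, with a log2 ratio of 1.28. By the length-weighted sum none of the 83 members passed 2-fold, while 743 of all 10968 genes (6.77%) did, and the 4 called members had ratios of -0.56 for ZNF226, 0.85 for ZNF431, 0.38 for ZNF564 and 0.62 for ZNF419.

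None of the compared members with a known role passed 2-fold with the AUF1 siRNA. With transcripts of status OK alone, ZNF175 (log2 ratio -2.52) and ZNF224 (-1.64) did, and ZNF91 was at 0.67. With all transcripts, ZNF93 had a log2 ratio of -0.78 (9.59 to 5.15 FPKM) and ZNF91 one of -0.54 (6.86 to 4.39 FPKM), while ZNF43 was at 0.06 and ZNF85 at 0.37. ZNF274 stood at -0.40, ZNF175 at -0.46, ZNF574 at -0.36, ZNF146 at -0.20 and ZNF224 at -0.03. ZNF536, a neuronal repressor, stood at 0.57, ZNF331 at 0.36 and ZNF444 at 0.10. ZNF350, ZNF382 and ZNF420 were under the level needed for comparison. Of the highest members, ZNF586 (0.63), ZNF233 (0.62), ZNF776 (0.47) and ZNF813 (0.44) were above 0, and ZNF254 (-0.64), ZNF780A (-0.54), ZNF121 (-0.29) and ZNF587 (-0.08) below.

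The 5 overexpression libraries were each compared with the empty vector library, which they share. With p37, 5 of 95 members were past 2-fold (background 5.63%), 2 higher and 3 lower (backgrounds 2.88% and 2.75%), or 3 and 3 after scaling by the 75th percentile. With p40, 4 of 92 were (background 6.76%), 2 higher and 2 lower (3.91% and 2.85%), or 1 and 2 without scaling. With p42, 8 of 95 were (background 5.72%), 5 higher and 3 lower (3.03% and 2.7%). With p45, 5 of 98 were (background 8.04%), 2 higher and 3 lower (4.97% and 3.07%). With all isoforms, 4 of 98 were (background 6.22%), 2 higher and 2 lower (3.25% and 2.97%). The members' shares were 5.26%, 4.35%, 8.42%, 5.10% and 4.08% in the order of the libraries, above the background with p42 and below it in the other 4. Against the control siRNA library, 88 members were compared in each case and nearly all calls were higher ones. There were 7 higher and 0 lower with p37, 4 and 1 with p40, and 6 and 0 with p42. With p45 there were 8 and 0, and with all isoforms 5 and 0. The members' shares in either direction were 7.95%, 5.68%, 6.82%, 9.09% and 5.68%. The backgrounds were 6.50%, 7.57%, 6.88%, 8.71% and 8.22%. Over all genes, higher calls also outnumbered lower ones. They were 393 and 293 with p37, 511 and 294 with p40, and 420 and 306 with p42. With p45 they were 620 and 317, and with all isoforms 455 and 416. Against the empty vector, median log2 ratios of the members were 0.08, 0.05, 0.08, 0.07 and 0.04 in the same order, beside -0.01, -0.01, -0.01, -0.02 and -0.02 over all genes compared.

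ZNF587 (ENSG00000198466, hg19 chromosome 19, 58361228 to 58376485) had the most extreme ratios. Its values were 7.55, 7.08, 245, 13.7, 8.60, 7.11, 7.72 and 257 FPKM, so the empty vector and all-isoform libraries stood far above the rest. The log2 ratios of the 5 overexpression libraries to the empty vector were -4.07, -4.68, -4.92, -4.82 and 0.07. The neighbouring ZNF587B (58341681 to 58355823) showed the reverse, with values of 31.3, 40.6, 0, 50.6, 41.8, 46.5, 38.2 and 0 FPKM. In the 2 libraries where ZNF587 was high, all of its FPKM came from an assembled transcript of 504 nt or 510 nt, a model that the authors' software built from the reads. Its span in the empty vector library (hg19 chromosome 19, 58331094 to 58388529) covers 3 members, ZNF587B and ZNF587 among them. Models of 5472 to 5605 nt held most or all of the value in 5 of the other libraries, and their spans also cover ZNF587B. In the p37 library 2 annotated transcripts of 6843 nt and 1476 nt held it.

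Taken as 1 locus with the length-weighted sum, ZNF587 and ZNF587B together had values of 15.4, 18.7, 17.8, 27.6, 20.4, 24.4, 18.3 and 19.2 FPKM. The libraries in which ZNF587 alone was high lay inside this range.

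ZNF345 and ZNF28 were likewise high in the empty vector library. ZNF345, which has 15 fingers and no KRAB box, had values of 0.455, 2.12, 10.5, 0.317, 0.667, 0.703, 3.53 and 0.460 FPKM. It was called lower in all 5 overexpression comparisons, with log2 ratios of -3.13, -2.79, -2.76, -1.34 and -2.98. A transcript of 361 nt held 10.2 FPKM of the empty vector value and was at 0 in the other 7 libraries. ZNF28 had values of 5.69, 7.71, 19.5, 6.77, 10.5, 7.81, 8.57 and 7.90 FPKM. It was called lower in 4 overexpression comparisons, with log2 ratios of -1.40 (p37), -1.22 (p42), -1.10 (p45) and -1.20 (all isoforms). A transcript of 394 nt at 11.5 FPKM was present in the empty vector library alone. The summed bounds of ZNF28 overlapped in each of these comparisons, and those of ZNF345 did so with p45. Against the control siRNA library, no overexpression library had ZNF587, ZNF345 or ZNF28 lower by 2-fold, and ZNF345 with p45 had a log2 ratio of 1.64 at levels under 5 FPKM.

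ZNF428 was the member called higher most often. Its values were 5.57, 5.37, 5.30, 13.5, 12, 12, 11 and 3.15 FPKM. The 4 libraries of single isoforms were above both controls and the all-isoform library was below them. Log2 ratios were 1.20, 1.05 and 1.04 with p37, p40 and p42, and 0.94 with p45. Against the control siRNA they were 1.14, 0.99 and 0.98 for the first 3. The summed bounds overlapped with those of the empty vector in these 3 calls. The length-weighted log2 ratios were 0.86, 0.76 and 0.97. A 553 nt transcript had 3.17 FPKM in the empty vector library, against 10.9, 9.59 and 7.32 in these 3. The 1394 nt transcript had 2.12 FPKM there, against 0, 0 and 4.65. Restricting ZNF428 to transcripts of status OK left log2 ratios of 0.18 (p37) and 0.14 (p40). Restricting it to 1000 nt or more left 0.18 and 0.17. ZNF428 is short, with 1 finger found and no KRAB box, and shared 0.217% of its stretches with other genes.

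ZNF573 was higher with p45 and with all isoforms. Its values were 8.76, 14.6, 5.66, 8.23, 9.01, 10.3, 23.2 and 17.5 FPKM, the empty vector being the lowest and p45 the highest. The log2 ratios to the empty vector were 1.86 and 1.47, and a transcript of 342 nt carried 3.78 to 21.7 FPKM of the value. ZNF708 was higher in the all-isoform library. It stood at 8.07 FPKM against 3.29 with the empty vector and 3.60 to 5.41 elsewhere, with a log2 ratio of 1.08 by the plain sum and 1.00 by the length-weighted sum. Its main model in that library was an assembled transcript of 3690 nt whose span covers 5 members.

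Each remaining higher call belonged to 1 library. ZNF254 stood at 104 FPKM with p37 and 23 to 36.5 elsewhere (log2 ratio 2.09), with 83.0 FPKM of it on an assembled transcript of 502 nt. ZNF791 stood at 44.4 FPKM with p40 and 2.92 to 9.92 elsewhere (2.70), with 37.7 on a transcript of 313 nt. ZNF431 stood at 48.9 FPKM with p42 (2.82), with 47.3 on a transcript of 610 nt. ZNF714 was at 30.0 FPKM with p42 and 13.3 to 16.9 elsewhere (1.09), with 18.2 on a transcript of 543 nt. ZNF181 was at 18.8 FPKM with p42 and 2.03 to 9.21 elsewhere (1.66), with 17.3 on a transcript of 333 nt. ZNF567 was at 28 FPKM with p45 and 4.84 to 6.96 elsewhere (2.24), with 24.3 on a transcript of 378 nt. ZNF419 was also called with p42, at a log2 ratio of 1.10. Each of these 6 short models was assembled from the reads and was listed above 0 in 1 library. Assembled models were named library by library, so this also held for the long ZNF254 models of 2908 to 2933 nt. The listing therefore does not show that the short RNA was absent elsewhere. The length-weighted log2 ratios were 0.32 for ZNF254, 0.71 for ZNF791, 0.53 for ZNF431, 0.31 for ZNF714, 0.38 for ZNF181 and 0.60 for ZNF567.

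**Figure D3:**
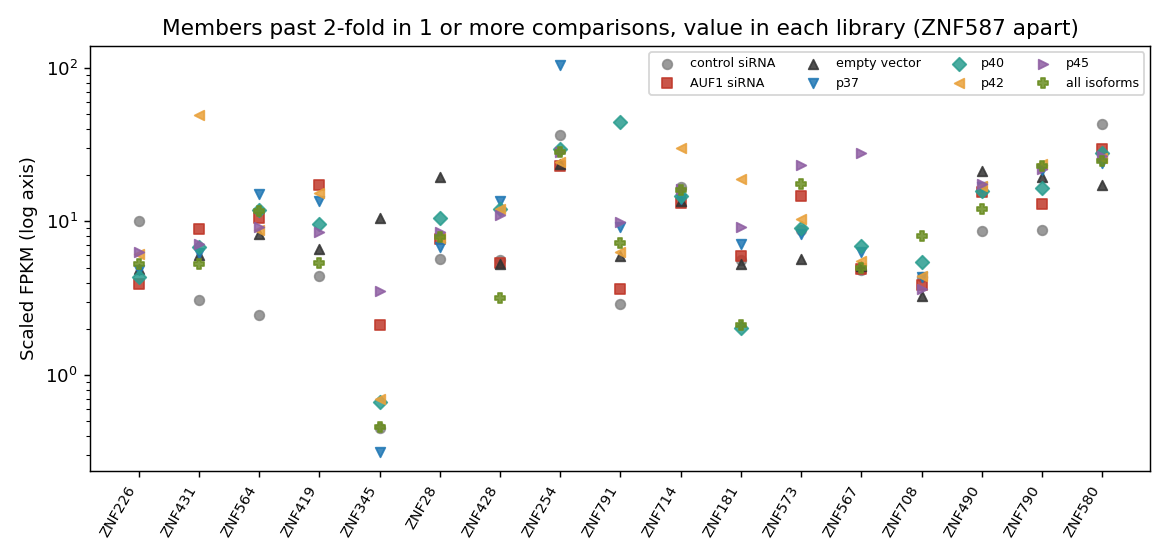
Scaled FPKM on a log axis of 17 members past 2-fold in 1 or more of 7 comparisons, with 1 symbol for each of 8 libraries (ZNF587 is plotted apart). Single symbols stand away from the others, such as p37 for ZNF254 (104 FPKM), p42 for ZNF431 (48.9), p40 for ZNF791 (44.4) and the empty vector for ZNF345 (10.5).

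The control siRNA and empty vector libraries were compared as a measure of how far 2 libraries without an intended change in AUF1 differ. Of 88 members compared, 7 (7.95%) were past 2-fold, near the background of 7.59%. Of these, 1 was higher and 6 were lower in the control siRNA library (backgrounds 3.53% and 4.06%). The lower members were ZNF587, ZNF345, ZNF28, ZNF564, ZNF490 and ZNF790. ZNF490 stood at 8.71 FPKM with the control siRNA, 21.1 with the empty vector and 12 to 17.5 elsewhere, and ZNF790 at 8.72, 19.4 and 12.9 to 23.5 FPKM. The higher member was ZNF580, at 42.7 FPKM with the control siRNA, 17.1 with the empty vector and 23.8 to 29.6 elsewhere. Its length-weighted log2 ratio was 1.04, near the 1.27 of the plain sum. The median log2 ratio of the members was -0.09, beside -0.00 over all genes compared. The pair thus gave more member calls than the AUF1 siRNA pair and than 4 of the 5 overexpression libraries against the empty vector, p42 being the exception.

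Over the 7 comparisons there were 37 calls in 18 members, out of 114 members compared at least once. The 122 members left were never compared because of their level or a value of 0. The summed bounds lay apart in 21 of the 37 calls. By the length-weighted sum 7 of the 37 stayed past 2-fold in the same direction. Of these, 5 were ZNF587, whose empty vector value came from a model that also spans ZNF587B. The long models behind its low values, except with p37, span ZNF587B as well. The other calls were ZNF708 with all isoforms and ZNF580 between the controls. The call of ZNF28 between the controls changed sign. On the same genes, the length-weighted sum put 1 member past 2-fold in each of the 5 overexpression comparisons, between 1.02% and 1.09% of those compared. The share over all genes was 1.21%, 1.88%, 1.41%, 2.51% and 1.38% in the same order. Between the controls it put 2 of 88 members past 2-fold, with 2.05% over all genes.

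**Figure D4:**
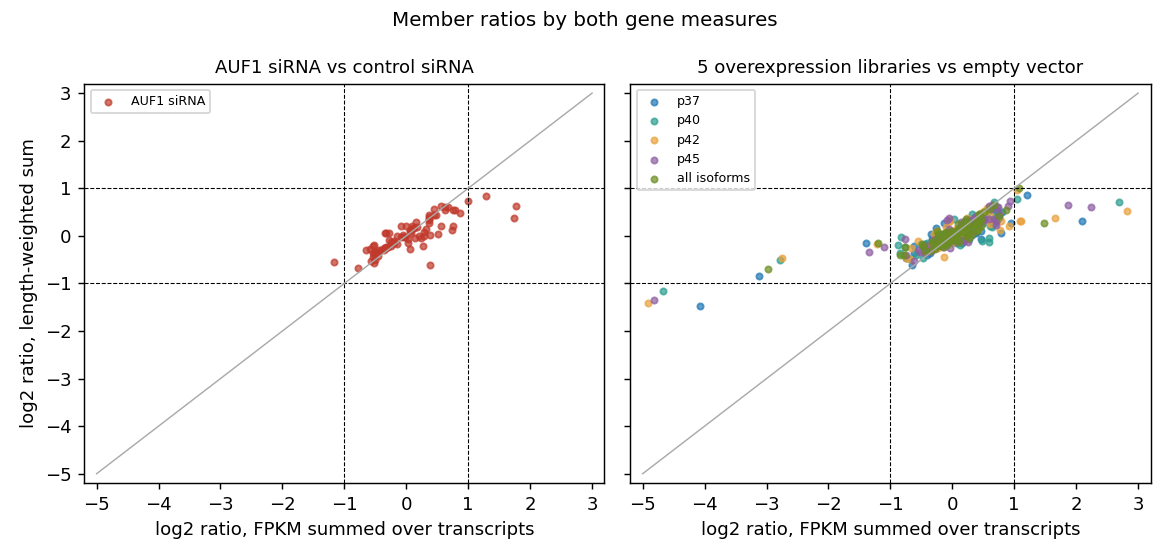
Log2 ratio of each compared member by the plain FPKM sum (horizontal) and by the length-weighted sum (vertical), for the AUF1 siRNA pair (left) and the 5 overexpression libraries against the empty vector (right). Dashed lines mark 2-fold and the grey line equality. No member of the AUF1 siRNA pair is past 2-fold vertically, and the points far to the left on the right side are ZNF587 and ZNF345.

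Because AUF1 binds AU-rich sequences, the 3′ untranslated regions were searched on the transcript strand for the pentamer ATTTA and for the nonamer TTATTTATT, which contains it. Of the 223 members with an annotated 3′ untranslated region, of median length 1254 nt, 173 (77.6%) held the pentamer. The share was 74.2% in ZNF-number genes elsewhere (median length 1295 nt), 38.4% in other chromosome 19 genes (424 nt) and 63.2% in all protein-coding genes (820 nt). The nonamer was present in 22 members (9.87%), against 10.7% of ZNF-number genes elsewhere and 7.25% of all protein-coding genes. Sites of 3 of these members are shown as examples. ZNF345 and ZNF431 were called above, as were ZNF587 and ZNF714, which also hold the nonamer, and ZNF382 is on the list of members with a known role. Each is 29 bases from the 3′ untranslated region of the GENCODE transcript, with the nonamer in capitals.
ZNF345: aaaaattattTTATTTATTgcaagtctaa
ZNF431: taaattttgtTTATTTATTtatttatttt
ZNF382: tggcagaagtTTATTTATTtttatccagt

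A match is a description and no evidence of AUF1 binding. ZNF431 carried 44 pentamers in an annotated region of 12019 nt, the printed nonamer at position 8134, and ZNF345 carried 6 in 1272 nt. In the deposited tables the ZNF431 transcript of the same identifier was 3846 nt long. The models behind the ZNF431 calls were 2618 nt (AUF1 siRNA) and 610 nt (p42). Each is too short to reach the printed site. Whether the transcripts behind the calls of ZNF345, ZNF587 and ZNF714 hold a site was not tested. With the AUF1 siRNA, the 27 members with 5 or more pentamers had a median log2 ratio of -0.27, the 36 with 1 to 4 a median of 0.13 and the 15 with none a median of 0.13. Among protein-coding genes outside the set the same medians were -0.14, -0.07 and -0.01. By the length-weighted sum the members' medians were -0.05, 0.04 and -0.00. With the 5 overexpression libraries, members with 5 or more pentamers had medians of 0.03, 0.07, 0.04, 0.01 and -0.08, and those with none 0.17, 0.31, 0.33, 0.29 and 0.05. Protein-coding genes outside the set had lower medians with 5 or more pentamers too, at -0.03, -0.08, -0.09, -0.14 and -0.07, against 0.00452, 0.06, 0.06, 0.06 and 0.02 with none. Between the controls, members with 5 or more had a median of 0.03, the 39 with 1 to 4 one of -0.28 and those with none one of 0.21.

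KRAB zinc finger proteins act through partners, of which 25 listed corepressor genes were analysed, CBX3 being listed at 0 throughout. Whether a listed 0 for CBX3, or for SETDB1 below, means that the RNA was absent was not tested. TRIM28, the common scaffold, had values of 52.6, 31.5, 33.2, 36.3, 34.5, 39.4, 42.8 and 38 FPKM. Its log2 ratio of -0.72 with the AUF1 siRNA did not pass 2-fold, and the AUF1 siRNA value was close to that of the empty vector. With the AUF1 siRNA 1 of 23 corepressors was higher, MORC2 of the HUSH pathway (5.90 to 18.7 FPKM, log2 ratio 1.51), and 1 lower, the NuRD subunit MTA2 (35.4 to 15.2 FPKM, -1.17), beside 9.93% and 3.25% of all genes. The median over the 23 was -0.25, with 4 of them above 0, beside -0.04 over all genes compared. The length-weighted log2 ratios of MORC2 and MTA2 were 0.48 and -0.35. Corepressor medians of the 5 overexpression pairs, from p37 to all isoforms, were -0.13, -0.23, -0.16, -0.19 and -0.04. Between the controls it was -0.10. A corepressor median below 0 was therefore not limited to the AUF1 siRNA pair. SETDB1, which methylates histone H3 at the bound sites, was listed at 0 with p40, p45 and all isoforms, at 11.1 FPKM in the empty vector library and at 3.0 to 3.88 FPKM in the remaining 4. SETDB1 was called lower with p37 (-1.31) and p42 (-1.59), and the control siRNA library differed from the empty vector about as much (-1.43). MORC2 was lower with p37 (-1.76), p40 (-1.42) and p42 (-1.48), and in the control siRNA library (-1.91). The chromatin remodeller CHD3 was lower with p42 (-1.92) and p45 (-1.67), and in the control siRNA library (-1.56). DNMT3A, a DNA methyltransferase, was higher with p42 (1.09). No length-weighted ratio of these calls passed 2-fold.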

How the data were processed

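The authors deposited 1 table per library with an FPKM per transcript and its lower and upper bounds, per the file headers. They also deposited a coverage signal for each transcript, and transcript length in nt is a further column. Cufflinks 2.0.2, Cuffdiff, TopHat2 2.0.6 and the build hg19 come from the submitters' processing notes. Annotation release: not given in the sources used here. Per the labels' protocols, 100 ng of total RNA was amplified before library construction, which with later PCR can distort levels; no statement on strand is given, so sense and antisense reads cannot be told apart. Read numbers are unknown. The deposited bounds cover estimation of a transcript within a library only. For a gene they were summed over its transcripts and scaled as FPKM was.

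Of 160485 Ensembl transcripts, 136915 matched GENCODE release 29 by identifier, 8188 by gene identifier and 14230 by position cluster, and 63 on another chromosome were left out. Assembled transcripts were placed with the gene of their cluster that they overlapped most. FPKM was summed over transcripts of 300 nt or more and divided by a median-of-ratios factor (0.930 to 1.06, from 14000 genes). Ratios were log2(FPKM + 1), compared at a mean of 5 FPKM and called at 2-fold. With 1 library in each group no test was run. The counting was tested on simulated data. Hg19 positions are those of the deposited tables. Fingers and shared 32-base stretches came from the GENCODE transcript with the longest coding sequence. The KRAB box was the best match over all coding GENCODE transcripts of a gene. It was counted at 11 or more of 37 consensus residues, a threshold set after seeing its distribution. GENCODE sequence was used in place of the planned RefSeq proteins. Python 3.11.15, numpy 2.4.6, pandas 2.3.3 and matplotlib 3.10.9 were used.

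Members named are the 8 highest by level, up to 10 called members in each direction with the AUF1 siRNA, up to 3 in each direction against the empty vector, and a list of members with a known role. ZNF428 and ZNF714 with p42, and ZNF564, ZNF490 and ZNF790 between the controls, fall outside this rule and were named after their values were seen, as were ZNF587B and members named only for a level or a sequence feature. Of the corepressors, TRIM28, SETDB1 and each called gene are named. The members and lists were chosen with earlier results of these data known. Alternatives varied the scaling, the gene measure, the pseudocount, the filters on level, length and status, and the control library.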

Additional observations from a re-analysis of the deposited data

How the results depend on the processing

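No paired analysis was possible because each group has 1 library; leaving out a library was not possible either. Main member counts in the order AUF1 siRNA, p37, p40, p42, p45, all isoforms and control pair were 3 higher and 1 lower, 5, 4, 8, 5, 4 and 7, and main medians 0.04, 0.08, 0.05, 0.08, 0.07, 0.04 and -0.09.

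Scaling by the 75th percentile moved the AUF1 siRNA median of members to 0.17 and that of all genes from -0.04 to 0.10 with them. Without scaling the p45 median was -0.0271 and that of the control pair -0.28, and the p40 and p42 medians were -0.01 each. The pseudocount of 0.5 kept all 32 named calls. With a mean of 20 FPKM the AUF1 siRNA pair had 0 higher and 0 lower of 14, median 0.36. Counts were then 2 in the p37 pair, 2 in the p40 pair (median 0.29), 3 in the p42 pair (median 0.26), 1 in the p45 pair, 0 in the all-isoform pair and 2 between controls (median -0.20). With no filter on level there were 10 higher and 2 lower of 220 with the AUF1 siRNA (5.45%, all genes 13.8%), 7 of 222 with p40 (3.15%, 6.62%), 15 of 224 with p42 (6.70%, 5.53%) and 11 of 223 with p45 (4.93%, 8%). Transcripts of status OK gave 4 higher and 2 lower of 69 with the AUF1 siRNA (8.70%, all genes 16.1%), 9 of 78 with p40 (11.5%, 10.1%), 8 of 80 with p45 (10%, 11.4%) and 7 of 79 with all isoforms (8.86%, 9.45%). They put ZNF175 (-2.52) and ZNF224 (-1.64) past 2-fold with the AUF1 siRNA, and turned ZNF91 there to 0.67, ZNF419 with p42 to -0.44 and ZNF28 with p45 to 0.0925. Without the length filter 3 members were lower with the AUF1 siRNA, where ZNF226 turned to 0.13 and ZNF431 to -2.74, and ZNF345 with p42 turned to 0.36.

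The length-weighted sum, with its own filter on level, left 0 higher and 0 lower of 33 members with the AUF1 siRNA (median -0.0653), 1 in every overexpression comparison and 2 between controls, and turned ZNF28 between controls to 0.0872. Of the 32 named calls 24 fell under 2-fold, as the weighting reduces short transcripts by its construction.

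With the other control library, the AUF1 siRNA pair had 2 higher and 4 lower (6.74%, all genes 12.2%) and a median of -0.10. With p45 there were 8 higher and 0 lower (9.09%, all genes 8.71%). The overexpression medians were 0.21, 0.21, 0.24, 0.19 and 0.22. ZNF587 turned to 0.78 with p37, 0.17 with p40 and 0.0269 with p45. ZNF28 turned to 0.22 (p37), 0.40 (p42), 0.52 (p45) and 0.41 (all isoforms). ZNF345 turned to 0.20 (p40), 0.23 (p42), 1.64 (p45) and 0.00457 (all isoforms).

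Further alternatives were chosen after seeing the data. Identifier matches alone gave 2 lower with the AUF1 siRNA, 2 with p40, 3 with p42, 3 with p45 and a control-pair median of 0.026. Transcripts of 1000 nt or more gave 1 higher and 0 lower with the AUF1 siRNA, 0 with p37, p40, p42, p45 and between controls, and 1 with all isoforms. ZNF564 with the AUF1 siRNA was then -0.35. In the order p37, p40, p42, p45 and control siRNA, ZNF587 was 3.85, 3.28, 3.03, 3.14 and 3.05. ZNF28 was 0.69 (p37), 0.39 (p42), 0.28 (p45), 0.85 (all isoforms) and 1.26 (controls). ZNF345 was 0.33 (p40), 0.35 (p42), 0.13 (p45), 0.13 (all isoforms) and 0.11 (controls). With p37 ZNF254 was -0.18. With p42 ZNF431 was -1.43, ZNF181 -0.18 and ZNF419 -0.42. With p45 ZNF567 was -0.36 and ZNF573 -0.16, and ZNF573 was -0.94 with all isoforms. The cause was not tested beyond the lengths given. Depth limits genes under 5 FPKM, which 143 members were on average.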
